A study of Mus musculus with 2 samples.

Results

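The BCL2 family is a set of proteins that decide whether the outer membrane of the mitochondrion stays sealed or opens to start apoptosis. Its anti-death members (Bcl2, Bcl2l1, which encodes BCL-XL, Bcl2l2, which encodes BCL-W, Mcl1 and Bcl2a1b, a mouse copy of A1) hold the effectors in check. The effectors Bax and Bak1 form pores in the membrane once they are released. The BH3-only members Bcl2l11 (BIM), Bad and Bbc3 (PUMA) sense stress, occupy the groove of the anti-death proteins and thereby free the effectors. Senescent cells are known to lean on anti-death members, and drugs of the navitoclax type, which bind BCL-2, BCL-XL and BCL-W but not MCL-1 or A1, are used to remove them. These 10 genes were taken by name from the 15526 genes of the matrix, and all 10 were present; no threshold on their values entered the rule, but the list was drawn up with earlier results of these data known. They are described here in mCherry-positive lung cells, by cell class and between endothelial cells with and without a Cdkn2a transcript.

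Cells came from the lungs of p16-FDR mice on the C57BL/6 background, aged 20 to 22 months. The p16-FDR allele carries an FLP recombinase optimised for mammalian cells and a diphtheria toxin receptor that is fused to the red fluorescent protein mCherry, and cells were sorted for mCherry before droplet-based 3' RNA sequencing. The labels give 1 group with 2 samples, no mCherry-negative cells, no young mice and no statement of how many animals each sample held. All cells therefore share the allele, the age and the sort. The protein p16 is a product of Cdkn2a, and the matrix counts that gene as a whole, without separating its transcripts. The matrix held 1344 cells, 1145 in library 1 and 199 in library 2, with a median of 5828.5 unique molecular identifiers (UMIs, single counted molecules) per cell and a range of 2517 to 49467. The libraries shared 0 cell barcodes. The library numbers matched neither sample title, so all cells counted as 1 sample and no test across samples was run. Each library is given as a within-batch value. A level below is a gene's UMIs in a class per 10000 UMIs of all genes in that class, with an exact 95% Poisson interval in brackets. UMIs count molecules, not fragments, so levels of different genes were compared without a length correction. Such comparisons assume that the molecules of each gene were captured and counted alike, which was not tested. The intervals cover counting error only and not the spread between cells or mice. A lower level in a class cannot be told apart from fewer molecules of the gene against more molecules of other genes.

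Clustering without the 10 members gave 12 classes. Endothelial-like cells (603, 44.9% of all cells) expressed Pecam1, Cdh5 and Cldn5, and fell into cluster 1 (458 cells), marked by Car4, Apln and Prx, and cluster 2 (145 cells), marked by Ptprb, Plvap and Gpihbp1. The other classes were interstitial-macrophage-like (109 cells; Folr2, F13a1, Cd163), dendritic-like (72; Flt3, Itgax, Ccl22), serous-cavity-macrophage-like (48; Prg4, Alox15, Gata6), alveolar-macrophage-like (20), B-cell-like (82), T-cell-like (55), gamma-delta-T-like (101), plasma-cell-like (24), contractile-mesenchymal-like (91) and fibroblast-like (91) cells. Each named class had at least 6 detected markers of its list. In the dendritic-like class Itgax was seen in 50% of cells, Ccl22 in 26.4% and Flt3 in 22.2%. Zbtb46, also on the dendritic list, was seen in 16.7% of that class and in 18.2% of other cells. The contractile-mesenchymal-like class was mixed, with the smooth muscle actin gene Acta2 in 36.3% and Myl9 in 62.6% of its cells. Cdkn2a was at 2.56 (2.40 to 2.74) in endothelial-like and 1.79 (1.45 to 2.18) in serous-cavity-macrophage-like cells, the class next in order. A Cdkn2a UMI was seen in 54.2% of endothelial-like and 16.5% of all other cells, with the lowest share, 4.40%, in contractile-mesenchymal-like cells. An mCherry UMI was seen in 9.95% of endothelial-like and 1.75% of all other cells. Cells without such a UMI are not shown to lack the transcript. Cluster 10 (48 cells), led by the airway gene Scgb1a1, stayed unnamed. Library 2 was mostly endothelial-like (154 of 199 cells), and only 3 classes had at least 10 cells in it. No doublets were removed, and 35 cells carried markers of several lineages.

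The mouse A1 gene exists in near-identical copies on chromosome 9, of which Bcl2a1b is the member followed here. The stretches just before the annotated transcripts of the 3 copies in the matrix are shown because the copies were detected in the same classes and cannot be fully separated by short reads. They come from RefSeq on GRCm38.p6 and lie at chr9:89199023-89199202 (Bcl2a1b, plus strand), chr9:88956670-88956849 (Bcl2a1a, plus strand) and chr9:88731921-88732100 (Bcl2a1d, minus strand). Each is 180 bases long and written 5′ to 3′, and capitals mark the letters GAGGAAGT, which fit the binding motif of ETS factors such as PU.1, a regulator of blood cell genes.
Bcl2a1b: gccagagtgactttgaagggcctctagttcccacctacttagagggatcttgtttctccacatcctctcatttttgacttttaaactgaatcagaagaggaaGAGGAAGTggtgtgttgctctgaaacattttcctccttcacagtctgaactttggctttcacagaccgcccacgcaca
Bcl2a1a: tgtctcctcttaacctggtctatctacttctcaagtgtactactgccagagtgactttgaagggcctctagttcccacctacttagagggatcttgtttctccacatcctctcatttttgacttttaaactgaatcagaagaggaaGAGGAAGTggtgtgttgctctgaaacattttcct
Bcl2a1d: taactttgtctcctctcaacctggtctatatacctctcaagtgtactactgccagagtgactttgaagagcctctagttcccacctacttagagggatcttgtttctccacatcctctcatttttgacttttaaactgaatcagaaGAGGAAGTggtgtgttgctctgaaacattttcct
The longest identical run was 136 bases between Bcl2a1b and Bcl2a1a and 84 bases between Bcl2a1d and either of them. The run of 136 bases was cut off by the ends of the stretches shown, so the identity may reach further. GAGGAAGT or its reverse complement ACTTCCTC was found in 1052 of 32851 RefSeq promoter windows of 300 bases (3.20%), so the match is a description of these letters and not a shown binding site. Among the members, it was also found in the window of Bak1 and in 1 of 2 windows of Bad, and in none of the windows of the other 7.

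The members lie on several chromosomes of GRCm38, by GENCODE. The anti-death genes are Bcl2 at chr1:106538178-106714274, Bcl2l1 at chr2:152780668-152831728, Bcl2l2 at chr14:54883377-54888234, Mcl1 at chr3:95658788-95663176 and Bcl2a1b at chr9:89199209-89207827. The effectors are Bax at chr7:45461697-45466898 and Bak1 at chr17:27019810-27029009, and the BH3-only genes are Bcl2l11 at chr2:128126038-128162547, Bad at chr19:6941861-6951899 and Bbc3 at chr7:16308393-16318205. Reads of Bcl2l2, Bcl2a1b and Bax may be partly uncounted, because each overlaps a further annotated protein-coding gene on its own strand. Bcl2 overlaps the annotated genes Gm37053 and Mir3473f on its own strand. Bcl2, Bak1 and Bad each also overlap a gene on the opposite strand. The effect of these overlaps on the levels was not tested.

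Among the 5 anti-death members, with A1 counted as Bcl2a1b alone, Mcl1 was the most abundant transcript in 11 of 12 classes. Its protein is short-lived and binds BIM and BAK. The gamma-delta-T-like cells, led by Bcl2a1b, were the exception. That exception depended on the clustering: with 30 principal components both T classes formed 1 class of 156 cells, in which Bcl2a1b at 3.21 (2.77 to 3.69) and Mcl1 at 2.98 (2.56 to 3.44) overlapped, and no dendritic-like or contractile-mesenchymal-like class was named. The member in the next place differed by lineage. It was Bcl2l1 in endothelial-like cells and Bcl2a1b in all 4 myeloid classes. Bcl2 took that place in the B-cell-like, T-cell-like, plasma-cell-like and both mesenchymal classes and, level with Bcl2l1, in cluster 10. In B-cell-like cells Bcl2 at 3.06 and Bcl2a1b at 3.01 overlapped, and the 3 A1 copies together stood at 3.99 (3.50 to 4.52). In fibroblast-like cells Bcl2 at 0.47 and Bcl2l1 at 0.19 also overlapped. In 10 of the 12 classes the interval of the leading member lay above that of the next. The exceptions were dendritic-like cells, with Mcl1 at 7.96 (7.32 to 8.64) and Bcl2a1b at 7.57 (6.94 to 8.23), and T-cell-like cells, with Mcl1 at 4.71 (3.83 to 5.73) and Bcl2 at 3.91 (3.11 to 4.85). Among the 3 classes with at least 10 cells in library 2, the leading member was the same in both libraries in 2. In dendritic-like cells Mcl1 led in library 1 (7.60 against 6.59 for Bcl2a1b) and Bcl2a1b led in the 11 cells of library 2 (12.1 against 9.62).

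**Figure D1:**
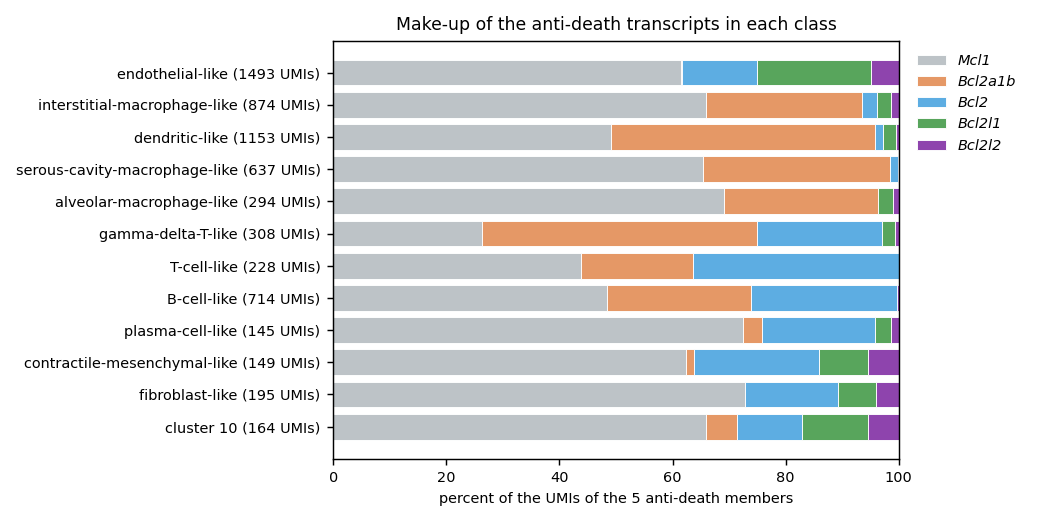
Share of each of the 5 anti-death members among their summed UMIs (x axis, percent) in each of the 12 classes, with the number of UMIs behind each bar in brackets. Mcl1 (grey) holds 61.5% in endothelial-like cells and 26.3% in gamma-delta-T-like cells, Bcl2a1b (orange) is wide in all leukocyte classes but the plasma-cell-like one, and Bcl2l1 (green) is widest, at 20.0%, in endothelial-like cells.

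Endothelial-like cells held Mcl1 at 2.58 (2.41 to 2.75), Bcl2l1 at 0.84 (0.75 to 0.94), Bcl2 at 0.56 (0.48 to 0.64) and Bcl2l2 at 0.21 (0.16 to 0.26). Their Bcl2a1b came to 3 UMIs in 603 cells, 0.0084 (0.0017 to 0.0246). Mcl1 thus supplied 61.5% of the 1493 anti-death UMIs, Bcl2l1 20.0%, Bcl2 13.3% and Bcl2l2 4.96%. Mcl1 was at 2.69 in library 1 and 2.31 in library 2, and Bcl2l1 at 0.85 and 0.81, so the order of the 2 leading members was the same in both. A Bcl2l1 UMI was seen in 222 of 603 endothelial-like cells (36.8%), or 19.4% expected after thinning each cell to 2500 UMIs, which left out 0 cells. In B-cell-like cells, with a higher median depth (6553 against 5239 UMIs), it was seen in 0 of 82.

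Bcl2l1 was the anti-death member that set the endothelial-like cells apart on the high side. Its level was 0.84 there and 0.18 (0.15 to 0.22) in all other cells, a log2 ratio of 2.21 (1.89 to 2.54). Its order was endothelial-like first, with an interval above the next, followed by dendritic-like at 0.38 (0.25 to 0.55), alveolar-macrophage-like at 0.36 (0.16 to 0.71) and interstitial-macrophage-like at 0.27 (0.17 to 0.42), which overlapped each other. Bcl2l1 was not detected in T-cell-like, B-cell-like and serous-cavity-macrophage-like cells, where a count of 0 allows levels up to 0.141, 0.0496 and 0.0554. The contrast was 5.22-fold in library 1 and 2.09-fold in library 2, where the 45 non-endothelial cells stood at 0.39. In that library dendritic-like cells (11) held Bcl2l1 at 0.80 (0.38 to 1.46), beside 0.81 in the endothelial-like cells, so the groups overlapped there. Bcl2l2, the least abundant anti-death member in the pooled cells at 0.13, was at 0.21 in endothelial-like cells against 0.084 (0.063 to 0.110) in all others, and no neighbouring classes in its order had separate intervals.

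**Figure D2:**
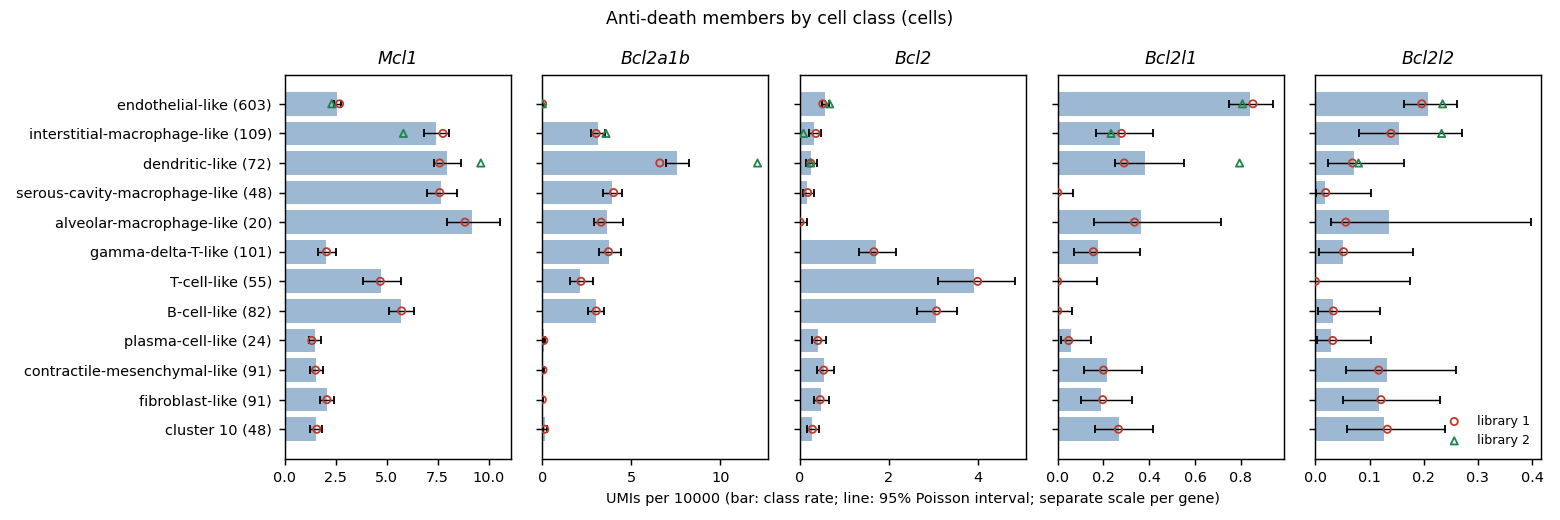
Level of each anti-death member (UMIs per 10000, a separate scale for each gene) in the 12 classes, with cell numbers in brackets; bars are pooled levels, lines are exact 95% Poisson intervals, and circles and triangles are libraries 1 and 2, drawn where a class has at least 10 cells in that library. Mcl1 runs from 1.48 to 9.20, Bcl2 is highest in the lymphocyte classes, and Bcl2l1 is highest in endothelial-like cells in the pooled bars.

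Over all genes, 46.5% of the 10162 tested were at least 1.5-fold higher in endothelial-like cells and 21.8% at least 1.5-fold lower, with a median log2 ratio of 0.51. Against that background 5 of 10 members were higher (Bcl2l1, Bcl2l2, Bax, Bad and Bbc3) and 3 lower (Mcl1, Bcl2a1b and Bcl2l11), a share close to that of all genes on the high side. Relative to the all-gene median, Bcl2l1 stood at 1.70, Bbc3 at 1.38 and Bcl2l2 at 0.80 on the log2 scale, while Bax and Bad stood at 0.43 and 0.34.

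Bcl2 was highest in the lymphocyte classes, where the protein is known to keep resting T and B cells alive. It was at 3.91 (3.11 to 4.85) in T-cell-like, 3.06 (2.64 to 3.53) in B-cell-like and 1.70 (1.32 to 2.16) in gamma-delta-T-like cells. The T-cell-like and B-cell-like intervals overlapped, and both lay above that of the gamma-delta-T-like cells, which in turn lay above every remaining class. The plasma-cell-like, endothelial-like and both mesenchymal classes followed between 0.41 and 0.56 and overlapped. The myeloid classes were at 0.31 or less, and alveolar-macrophage-like cells held 0 UMIs, which allows up to 0.136. Lymphocyte-like cells together were at 2.76 against 0.42 (0.38 to 0.47) in all other cells, a log2 ratio of 2.70 (2.48 to 2.92). The difference was 6.93-fold in library 1 and 4.11-fold in library 2, the latter over 7 lymphocyte-like cells. A Bcl2 UMI was seen in 61.8% of T-cell-like and 78.0% of B-cell-like cells (53.6% and 48.7% after thinning) and in 151 of 603 endothelial-like cells (12.7% expected after thinning). In lymphocyte-like cells 21.8% of 10074 genes were at least 1.5-fold higher and 39.7% lower. Of the members, 2 were higher (Bcl2 and Bcl2a1b) and 5 lower (Bcl2l1, Bcl2l2, Bak1, Bcl2l11 and Bad).

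Mcl1 was highest in the 4 myeloid classes. Alveolar-macrophage-like cells stood at 9.20 (7.97 to 10.6), dendritic-like at 7.96 (7.32 to 8.64), serous-cavity-macrophage-like at 7.68 (6.96 to 8.46) and interstitial-macrophage-like at 7.44 (6.84 to 8.07). These neighbours overlapped, and the lowest of them lay above B-cell-like cells at 5.71 (5.12 to 6.34). T-cell-like cells at 4.71 overlapped the B-cell-like interval and lay above endothelial-like cells. The last 5 classes ran from 2.07 in fibroblast-like to 1.48 in plasma-cell-like cells. Myeloid-like cells together were at 7.83 (7.47 to 8.21) against 2.53 (2.41 to 2.64) elsewhere, a log2 ratio of 1.63 (1.54 to 1.73), with 3.02-fold in library 1 and 3.61-fold in library 2. Mcl1 was seen in all 48 serous-cavity-macrophage-like and all 20 alveolar-macrophage-like cells, and in 70.1% of endothelial-like cells. In myeloid-like cells 18.7% of 10175 genes were at least 1.5-fold higher and 39.8% lower, and of the members 4 were higher (Mcl1, Bcl2a1b, Bak1 and Bcl2l11) and 5 lower (Bcl2, Bcl2l1, Bcl2l2, Bad and Bbc3).

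Mcl1 is itself an immediate response gene, and the dissociation and stress genes varied between classes. The summed level of the 18 genes on that list (Fos, Jun, Atf3, Hspa1a and others, all detected in each class) was 240 in interstitial-macrophage-like, 140 in dendritic-like and 144 in serous-cavity-macrophage-like cells, 160 in fibroblast-like and 143 in T-cell-like cells, and 76.4 in endothelial-like cells. Of these, 13 were at least 1.5-fold higher and 0 lower in myeloid-like cells. The list did not follow Mcl1 class by class: alveolar-macrophage-like cells, highest for Mcl1, were at 76.0, and fibroblast-like cells had more of the list and less Mcl1 than B-cell-like cells (64.8). The part of the stress genes in the Mcl1 levels was not tested.

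Bcl2a1b, a target of NF-kB known from activated leukocytes, was detected almost entirely in leukocyte classes. It was at 7.57 (6.94 to 8.23) in dendritic-like cells, above every other class, and between 2.12 and 3.90 in the 6 classes that followed. Gamma-delta-T-like cells, where it led the anti-death members, stood at 3.76 (3.18 to 4.41), with 3.72 in the 98 cells of library 1, beside Mcl1 at 2.03 and Bcl2 at 1.70, which overlapped. Plasma-cell-like cells were the leukocyte class without appreciable Bcl2a1b, at 0.0705 (0.0229 to 0.165). The 8 leukocyte classes together were at 3.48 (3.30 to 3.66) against 0.0252 (0.0138 to 0.0422) in the 833 other cells, a log2 ratio of 7.11 (6.36 to 7.99). Of the 14 UMIs in those other cells, 9 were in 3 cells of cluster 10, and without that cluster's top cell its level fell from 0.126 to 0.0722. Library 2 gave 0 UMIs outside leukocytes. In leukocyte-like cells 17.6% of 10254 genes were at least 1.5-fold higher and 48.1% lower, and 4 members were higher (Bcl2, Mcl1, Bcl2a1b and Bcl2l11) and 4 lower (Bcl2l1, Bcl2l2, Bad and Bbc3).

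The other A1 copies followed the same classes with different proportions. Dendritic-like cells held Bcl2a1b at 7.57, Bcl2a1d at 5.44 and Bcl2a1a at 3.71, and all copies together at 16.7 (15.8 to 17.7), above Mcl1 in the same cells. Bcl2a1b supplied 45.2% of the A1 UMIs there and 87.9% in serous-cavity-macrophage-like, 78.5% in interstitial-macrophage-like and 61.2% in gamma-delta-T-like cells. Bcl2a1a was 31.6% of A1 in alveolar-macrophage-like and 0.83% in B-cell-like cells. Endothelial-like cells held 4 A1 UMIs in all. Windows of 100 bases in the last 500 bases of each transcript were also found in another copy for 32.9% of Bcl2a1b, 35.7% of Bcl2a1a and 57.1% of Bcl2a1d windows, so the split between copies is uncertain, and reads fitting several copies may have been left out of the counts.

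**Figure D3:**
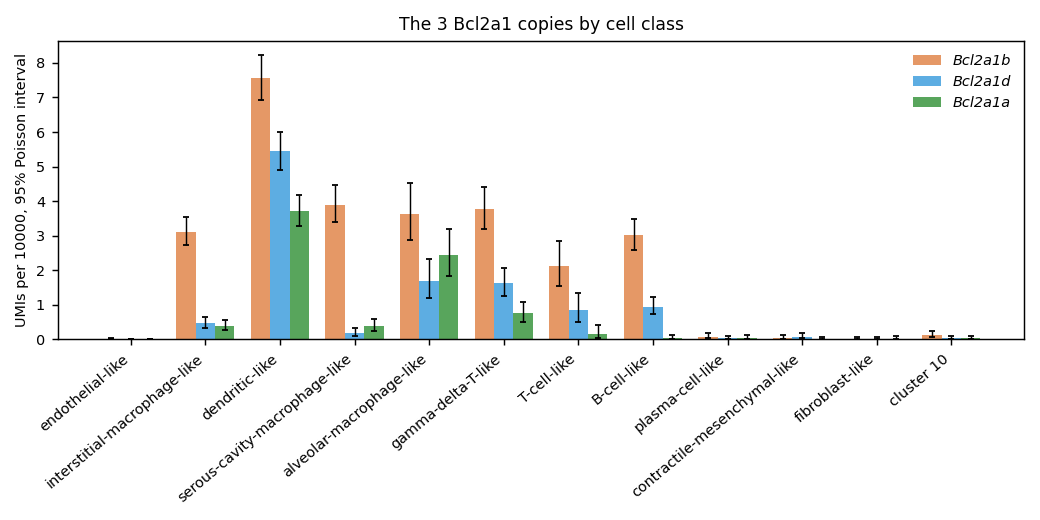
Level of the 3 A1 copies (UMIs per 10000, linear axis, lines are exact 95% Poisson intervals) by class. All 3 copies are highest in dendritic-like cells and near 0 in endothelial-like, mesenchymal and plasma-cell-like cells, and the proportion of Bcl2a1b ranges from 45.2% to 87.9% among the 7 leukocyte classes other than plasma-cell-like cells.

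Counted per cell, 337 of 603 endothelial-like cells (55.9%, exact 95% interval 51.8 to 59.9) held a UMI of Bcl2, Bcl2l1 or Bcl2l2, the transcripts of the proteins that navitoclax binds. That was 32.7% after thinning. A further 170 cells (28.2%) held Mcl1 without any of the 3, and 95 (15.8%) held none of the 5 anti-death members at this depth, which does not show that they lack them. Serous-cavity-macrophage-like cells were at the low end, with 6 of 48 (12.5%, 4.73 to 25.2, and 4.20% after thinning), while all 42 others held Mcl1 without the 3. B-cell-like cells were at the high end, with 64 of 82 (78.0%, 67.5 to 86.4, and 48.9% after thinning). T-cell-like cells were at 61.8% (53.6% after thinning). The summed level of the 3 genes was 1.61 (1.48 to 1.74) in endothelial-like, 3.91 (3.11 to 4.85) in T-cell-like, 3.09 (2.67 to 3.57) in B-cell-like and 0.57 (0.47 to 0.67) in myeloid-like cells. Gamma-delta-T-like cells, at 1.93 (1.52 to 2.41), overlapped the endothelial-like level, and 42.6% of them held such a UMI (33.2% after thinning). T-cell-like and B-cell-like cells thus carried more of these transcripts than endothelial-like cells and myeloid-like cells fewer. The most abundant of the 3 was Bcl2 in the lymphocyte classes and Bcl2l1 in endothelial-like cells.

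Bax, the effector that moves from the cytosol to the mitochondrion, was at 2.37 (2.22 to 2.54) in endothelial-like, 2.25 (1.89 to 2.66) in B-cell-like and 2.10 (1.68 to 2.60) in gamma-delta-T-like cells, which overlapped. The other classes were between 0.78 and 1.49. In endothelial-like cells Bax was at 2.07 (1.89 to 2.25) in library 1 and 3.09 (2.76 to 3.44) in library 2, and these intervals did not overlap. Against all other cells the ratio was 1.68-fold in library 1 and 2.34-fold in library 2. Bak1, the effector that sits in the mitochondrial membrane, was much lower, at 0.33 (0.27 to 0.40) in endothelial-like cells. Its highest level was 0.68 (0.38 to 1.12) in the 20 alveolar-macrophage-like cells, which overlapped the serous-cavity-macrophage-like and dendritic-like levels of 0.42.

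The BH3-only members divided by lineage. Bbc3, which p53 induces, was at 0.46 (0.39 to 0.54) in endothelial-like cells against 0.12 (0.098 to 0.156) in all others, a log2 ratio of 1.89 (1.49 to 2.30), with 3.69-fold in library 1 and 2.39-fold in library 2. B-cell-like cells came next at 0.28 (0.16 to 0.45), which overlapped the endothelial-like interval. Bcl2l11, induced by FOXO factors and loss of growth factor, was instead highest in myeloid-like cells, at 0.77 (0.66 to 0.89) against 0.17 (0.15 to 0.21) elsewhere, a log2 ratio of 2.14 (1.80 to 2.48). Alveolar-macrophage-like cells led at 1.68 (1.18 to 2.31), above the interval of the next class, and the other 3 myeloid classes were between 0.62 and 0.70. Without the single cell with most UMIs, Bcl2l11 went from 0.150 to 0.0505 in gamma-delta-T-like, from 0.377 to 0.241 in T-cell-like and from 0.141 to 0.0600 in plasma-cell-like cells. Bad, which phosphorylation by survival kinases keeps inactive, was highest in contractile-mesenchymal-like cells at 0.82 (0.61 to 1.09) and endothelial-like cells at 0.75 (0.66 to 0.84), which overlapped. T-cell-like cells held a single Bad UMI.

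**Figure D4:**
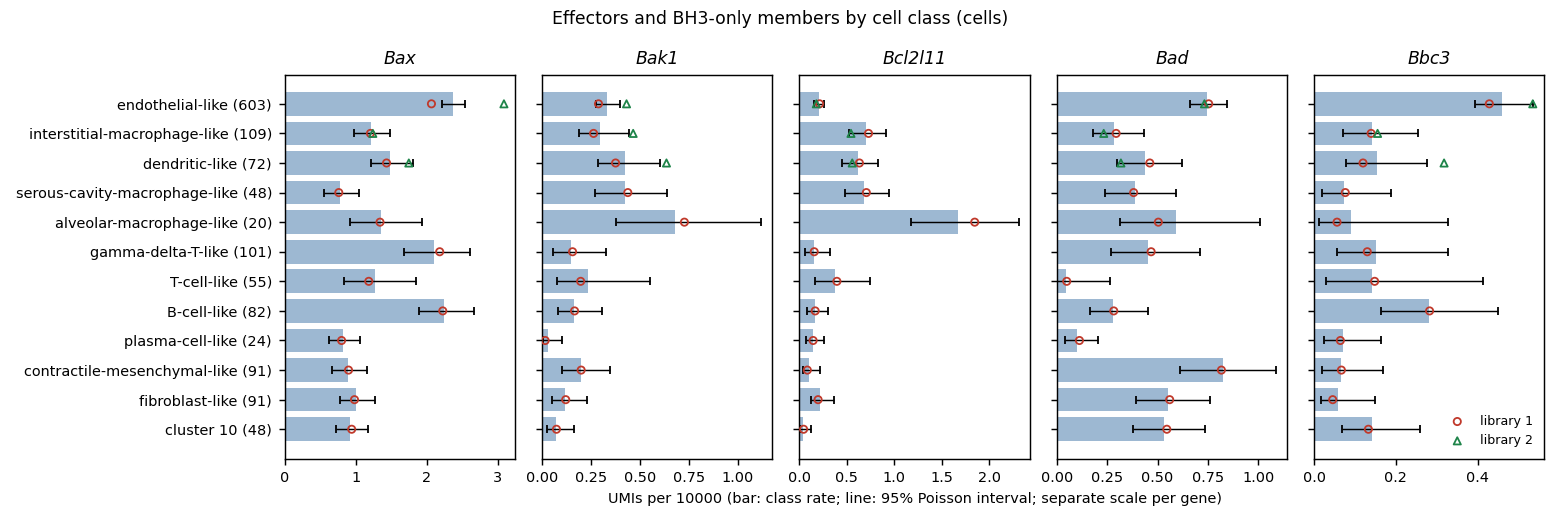
Level of the effectors Bax and Bak1 and the BH3-only members Bcl2l11, Bad and Bbc3 (UMIs per 10000, a separate scale for each gene) in the 12 classes; bars, lines and points are as in the plot of the anti-death members. Bax and Bbc3 are highest in endothelial-like cells, Bcl2l11 and Bak1 in alveolar-macrophage-like cells and Bad in contractile-mesenchymal-like cells.

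Set side by side, the 5 anti-death members summed to 4.19 and the 2 effectors to 2.70 in endothelial-like cells, a ratio of 1.55. That was the lowest ratio of the 12 classes. It was 9.80 in serous-cavity-macrophage-like, 8.48 in dendritic-like, 7.47 in interstitial-macrophage-like and 7.13 in T-cell-like cells. In the remaining 7 classes it lay between 2.26 and 6.53. These are ratios of transcripts between genes that may not be counted alike, and protein levels were not measured.

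Within the endothelial-like cells, Mcl1 and Bcl2l1 had overlapping intervals in both clusters while Bcl2, Bcl2l11 and Bax did not. Mcl1 was at 2.54 (2.34 to 2.75) in cluster 1 and 2.66 (2.37 to 2.98) in cluster 2, and Bcl2l1 at 0.89 (0.78 to 1.02) and 0.73 (0.58 to 0.91). In the 22 cells of cluster 2 from library 2 they were lower, with Mcl1 at 1.54 against 2.49 in cluster 1 of that library and Bcl2l1 at 0.48 against 0.89. Bcl2 was 1.72-fold higher in cluster 1, at 0.65 (0.55 to 0.76) against 0.38 (0.27 to 0.51), and higher there in both libraries (0.59 against 0.38, and 0.75 against 0.34). Bcl2l11 went the other way, at 0.13 (0.091 to 0.187) in cluster 1 and 0.35 (0.25 to 0.48) in cluster 2, again in both libraries (0.12 against 0.36, and 0.15 against 0.29). Bax was at 2.61 (2.41 to 2.83) in cluster 1 and 1.87 (1.62 to 2.13) in cluster 2, and this gap was 2.18 against 1.88 in library 1 and 3.40 against 1.78 in library 2. Bbc3 was 1.57-fold higher in cluster 1 with overlapping intervals.

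Other genes of the family were followed from a list of 15, of which 13 were in the matrix, and Bcl2l10 and Hrk were not analysed here. In endothelial-like cells 6 of 10 tested were at least 1.5-fold higher and 4 lower. Bnip3l, a mitophagy receptor, was at 3.55 there against 1.14 in all other cells, Bnip3 at 0.81 against 0.13, and the BH3-only gene Bik at 0.22 against 0.040. Bok, an effector-like member, was nearly confined to contractile-mesenchymal-like (0.40), fibroblast-like (0.49) and cluster 10 (0.24) cells, with 4 UMIs among endothelial-like cells, a single one in the interstitial-macrophage-like class and 0 in the other 7 classes. Pmaip1, which encodes NOXA, the BH3-only partner of MCL-1, was highest in dendritic-like cells (1.12) and near 0 in contractile-mesenchymal-like (0.0165) and fibroblast-like cells (0 UMIs).

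Of the 14 genes on the apoptosome and caspase list, 7 were at least 1.5-fold higher in endothelial-like cells and 1 lower. The list also holds mitochondrial channels. Vdac2, a channel that holds BAK, was at 3.79 against 1.52 in all other cells and Vdac1, a related channel, at 1.56 against 0.67. Among inhibitors of apoptosis 2 of 5 tested were higher and 1 lower. Xiap, which blocks caspases, was at 2.03 against 0.72, and Birc3 at 0.059 against 0.58, with its highest level of 1.54 in interstitial-macrophage-like cells. Cflar, the inhibitor of caspase 8, also peaked there, at 2.23. Of 8 death receptors and adaptors 4 were higher in endothelial-like cells and 1 lower, with Fas at 2.02 against 0.30, Tnfrsf1a at 2.99 against 0.74 and Tnfrsf1b at 0.025 against 0.32. The p53 arm had 5 of 7 tested higher and 0 lower, among them Phlda3 at 6.70 against 0.63 and Cdkn1a at 8.26 against 2.17. With 46.5% of all genes higher, these counts are read as descriptions of the lists.

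The genes whose levels followed a member most closely over the 12 classes were taken from 3852 genes outside the family, by Pearson correlation of log2(level + 0.1). For Bcl2 they were Gimap9 (0.907), Swt1 (0.905) and Ets1 (0.886), all highest in T-cell-like cells. For Bcl2l1 they were Rala (0.885), Sqstm1 (0.879) and Dst (0.874), for Mcl1 Il10ra (0.944), Tyrobp (0.924) and Tm6sf1 (0.912), and for Bcl2a1b Cyth4 (0.978), Hcls1 (0.966) and Fam49b (0.965). The 12 points share libraries and differ in depth, and these values are descriptions.

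Endothelial-like cells were then split by Cdkn2a, which was detected in 327 and not in 276. A cell without a Cdkn2a UMI is not shown to lack the transcript. The sides differed in more than Cdkn2a: the 327 cells had a median of 5723 UMIs, came from library 2 in 118 cases and from cluster 1 in 277, while the 276 cells had a median of 4627.5 UMIs, with 36 from library 2 and 181 from cluster 1. The sides were also compared after matching within cluster and library. Genes detected in at least 5% of cells of either side were tested, which kept 8790 genes and 9 of the 10 members. Bcl2a1b, with 2 and 1 UMIs, did not pass.

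The leading anti-death member was Mcl1 on both sides, at 2.63 (2.41 to 2.86) with and 2.51 (2.26 to 2.78) without Cdkn2a, a log2 ratio of 0.07 (-0.13 to 0.26). Bcl2l1 was at 0.89 (0.76 to 1.02) and 0.77 (0.64 to 0.93), a log2 ratio of 0.19 (-0.15 to 0.54), with 0.24 in library 1 and 0.20 in library 2. Both intervals include no difference and end short of 1.5-fold. With each cell thinned to 2500 UMIs before Cdkn2a was called, which left 206 cells with and 397 without it, Bcl2l1 was past 1.5-fold (0.65) and Mcl1 was at -0.16. Bcl2l2 was at 0.22 (0.17 to 0.30) and 0.18 (0.12 to 0.27). Bcl2, the third anti-death member of these cells, was at 0.66 (0.55 to 0.78) with and 0.42 (0.32 to 0.54) without Cdkn2a, a log2 ratio of 0.64 (0.19 to 1.09), just past 1.5-fold. It was higher in cells with Cdkn2a in library 1 (0.62 against 0.41) and in library 2 (0.70 against 0.52), with overlapping intervals in each. Matched within cluster and library, its log2 ratio was 0.45, and with thinned cells 0.53, both short of 1.5-fold.

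Among the pro-death members, Bax was at 2.62 (2.40 to 2.85) and 2.03 (1.80 to 2.27), a log2 ratio of 0.37 (0.16 to 0.58) that was 0.16 in library 1, 0.38 in library 2, 0.21 after matching and 0.06 with thinned cells. Bak1 was at 0.39 (0.31 to 0.49) and 0.24 (0.17 to 0.34), a log2 ratio of 0.68 (0.10 to 1.29), past 1.5-fold in the pooled cells. The Bak1 ratio was short of 1.5-fold in library 1 (0.55), in library 2 (0.57), after matching (0.48) and with thinned cells (0.17). Bcl2l11 was lower in cells with Cdkn2a, at 0.15 (0.10 to 0.21) against 0.28 (0.20 to 0.38), a log2 ratio of -0.91 (-1.63 to -0.20). That direction was present in library 1 (-0.65) and in library 2 (-1.71), with overlapping intervals of the levels in each. It was also present in cluster 1 at -1.02 (-2.12 to 0.07) and, short of 1.5-fold, in cluster 2 at -0.42 (-1.43 to 0.55). Both cluster intervals include no difference. The Bcl2l11 ratio was -1.04 after matching and -0.83 with thinned cells. The pooled ratio rests on 31 and 41 UMIs. Bad was at 0.67 and 0.86 with a log2 ratio of -0.38 (-0.73 to -0.02), and Bbc3 at 0.48 and 0.44.

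**Figure D5:**
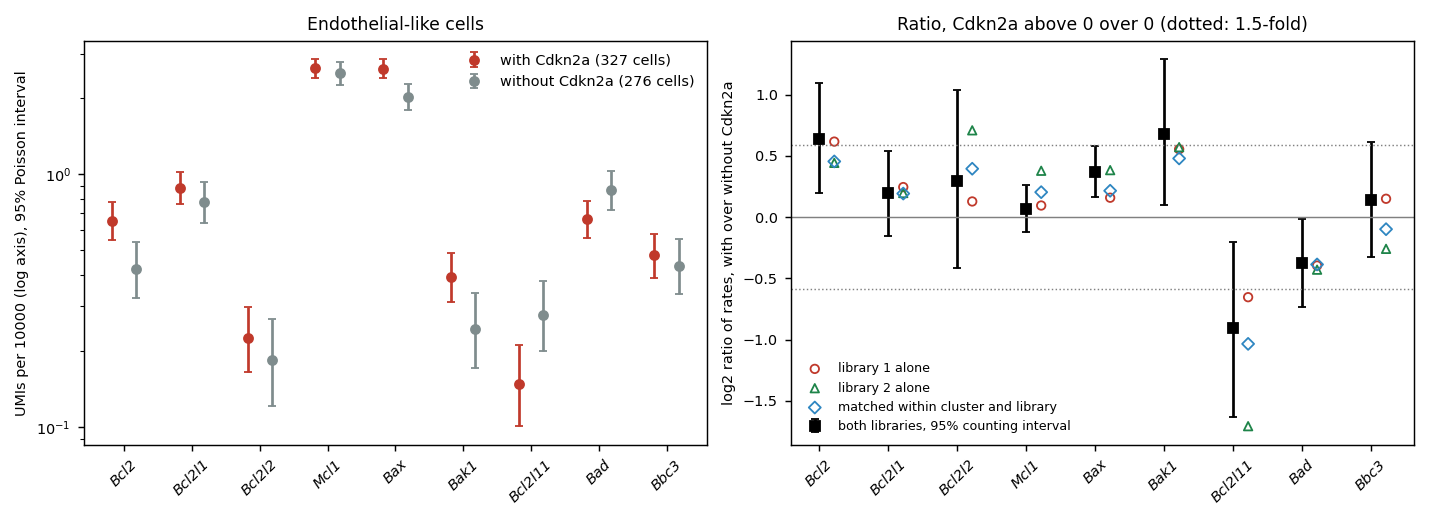
Left, levels of 9 members (UMIs per 10000, log axis, exact 95% Poisson intervals) in endothelial-like cells with (red) and without (grey) a Cdkn2a UMI. Right, log2 ratio of the levels with its counting interval (squares), in each library alone (circles and triangles) and matched within cluster and library (diamonds), with dotted lines at 1.5-fold; Bcl2l11 is below the lower line in every version drawn, while Bcl2 and Bak1 lie inside the lines after matching.

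In all, 2 members were at least 1.5-fold higher (Bcl2 and Bak1) and 1 lower (Bcl2l11), where 5.7% of all genes were higher and 7.26% lower, and the members' median log2 ratio was 0.19 beside 0.02 over all genes. After matching, 0 members were higher and 1 was lower. Of the wider pathway, the p53 arm had 3 of 7 tested genes higher, namely Zmat3 (log2 ratio 0.92), Aen (0.89) and Ccng1 (0.69), and 0 lower. Zmat3 was past 1.5-fold in both libraries (0.65 and 1.25), while Aen was at 0.86 in library 1 and 0.19 in library 2, and Ccng1 at 0.75 and 0.20. The summed p53 arm was at 20.2 in cluster 1 and 9.63 in cluster 2. The part of the clusters in the differences of these genes was not tested. Pmaip1 stood at 0.73 against 0.39 (log2 ratio 0.91), with -0.03 in library 1 and 1.27 in library 2, so that this difference was carried by library 2. Bik, at 0.15 against 0.32, was lower in both libraries. It was also lower in cluster 1, which held most cells with Cdkn2a, than in cluster 2 (0.11 against 0.46), and the part of the clusters in this difference was not tested. Birc2 was at 0.48 against 0.31 (log2 ratio 0.66, and 0.57 and 0.58 in the libraries, short of 1.5-fold in each), and 0 of the 7 death receptor genes tested passed the fold in either direction. The stress list summed to 74.5 with and 79.1 without Cdkn2a.

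The same split in other classes rested on few cells. In serous-cavity-macrophage-like cells (24 with, 24 without) Mcl1 was at 6.79 (5.87 to 7.80) and 8.73 (7.61 to 9.96) and Bcl2a1b at 4.49 (3.75 to 5.33) and 3.20 (2.54 to 3.99). Mcl1 stayed ahead on both sides and neither gap reached 1.5-fold. In B-cell-like cells (26 with, 56 without) Mcl1 was at 5.99 and 5.53, Bcl2 at 3.21 and 2.97 and Bcl2a1b at 2.86 and 3.10, with overlapping intervals for each.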

How the data were processed

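Single mCherry-sorted lung cells were measured with droplet 3' RNA sequencing, per the labels' protocols, and processed with Cell Ranger 3.0.2 on mm10, per the submitters' processing notes. For cell filters, gene annotation and doublet removal, nothing was stated in the sources used here. The authors deposited natural log values of 1 plus a gene's UMIs per 10000 UMIs of the cell, read from the values themselves, which sum to 10000 in every cell once the log is undone. Whole UMIs were recovered with a largest deviation of 1.78e-10 and used throughout. The 10 members and the gene lists were chosen with earlier results of these data known.

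Cells were clustered with scanpy 1.11.5 (2000 variable genes without the members, the gene lists, Cdkn2a, Cdkn2b and mCherry; values limited to 10; 20 principal components; 15 neighbours; Leiden at 0.5; igraph 0.11.9), which gave 13 clusters. Clusters were named from marker lists, and the 2 endothelial-like clusters were joined. With 1 pooled sample no test was run. Intervals are exact Poisson or Clopper-Pearson at 95%, and the limit for 0 UMIs is 3 counts. Depth per cell sets the precision, and thinned shares are those expected at 2500 UMIs per cell. A gene counts as higher or lower past 1.5-fold, tested on genes that 5% or more of the cells of either side held. Only the log2 ratio between sides was tried on simulated counts, with sides drawn without regard to depth, cluster or library. Clustering, class naming, matching and thinning were not simulated. Named genes are the members, Cdkn2a, up to 4 genes per list with the largest range over classes or the largest Cdkn2a ratio, and the 3 genes most like a member. Vdac1, Xiap, Tnfrsf1a and other list genes named outside that limit were chosen after their values were seen, as were the 6 lineage lists of the marker gate. Some genes of the lists are not reported here. The promoter stretches and the motif were also chosen after values were seen. Coordinates are from GENCODE release 21 for mouse (GRCm38). Alternatives covered clustering, libraries, matching, filters, a pseudocount of 0.1 and removal of mixed cells. The matrix held 0 unused columns of cells.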

Additional observations from a re-analysis of the deposited data

How the results depend on the processing

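Over clustering, library, gate, weighting and cell removal alternatives, the 4 class contrasts gave 35 values within their counting interval, 8 outside it and 0 with another sign. Leiden at 1.0 and variable genes with the lists kept repeated the main value in all 4 contrasts. Those values, counted among the 35, are not separate checks. The Bcl2l1 log2 ratio of endothelial-like to other cells went from 2.21 to 1.06 in library 2 alone. The Bcl2 ratio of lymphocyte-like to other cells went from 2.70 to 2.07 with classes from a marker gate and to 2.04 in library 2 alone, and the Mcl1 ratio of myeloid-like to other cells from 1.63 to 1.85 in library 2. The Bcl2a1b ratio of leukocyte-like to other cells went from 7.11 to 9.74 with the gate, 9.85 without cells of several lineages, 8.09 as a mean over cells and 8.40 without cluster 10 (added after seeing the data), and library 2 alone gave no value. In the Cdkn2a comparison 129 member ratios stayed within their interval, 7 moved and 0 called ratios changed sign. The count of members higher, 2, became 1 in library 1 alone, in library 2 alone and after matching within 10 bins of genes detected. The member was Bcl2 in library 1 and with the bins, but Bcl2l2 (0.71) in library 2. With thinned cells the count was again 2, but the members were Bcl2l1 and Bcl2l2 (0.65 each), with Bcl2 at 0.53 and Bak1 at 0.17. The count became 0 after matching within cluster and library, with a pseudocount of 0.1, as a mean over cells, in cluster 1 alone and after matching within cluster, library and 3 bins of genes detected, and the last 2 were added after seeing the data. The count of members lower, 1, became 0 in cluster 2 alone, also added afterwards. The counts of all genes higher and lower (501 and 638) were 1689 and 1731 in library 2 alone, 949 and 1499 with genes detected in at least 1% of cells, 292 and 309 with at least 10%, 112 and 248 with the pseudocount, and 1617 and 1447 in cluster 2 alone. Depth limits low levels in small classes most. Each library's own ratios are the comparison within libraries, and no test was run on them.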
